A study of Mus musculus with 9 samples.

Results

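The POU class III and class IV genes are transcription factor genes of the developing nervous system. The 6 described here are Pou3f1, Pou3f2, Pou3f3 and Pou3f4 of class III and Pou4f1 and Pou4f2 of class IV. They were taken by name from the 24100 genes of the count table. The names were chosen with earlier results of these data known. All 6 had enough counts to be tested, as had 14761 genes in all. For Pou4f2 this held only through the groups where it was high.

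A POU protein binds DNA through a POU-specific domain and a POU homeodomain joined by a flexible linker, and members bind octamer-like sites alone or beside SOX proteins. Class III factors act in neural progenitors and young neurons of the brain, and some of them also in Schwann cells, the hypothalamus or the inner ear. Class IV factors are known for the differentiation and survival of sensory neurons and retinal ganglion cells.

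RNA was taken from mouse cells that the labels call neural and that were made from embryonic stem cells. All 9 libraries came from cells with a stable PiggyBAC transgene, integrated with a transposase, that makes histone H4 with a 3HA tag. In the H4K91Q group lysine 91 of the tagged histone was glutamine, in the H4K91R group it was arginine, and in the H4WT group the tagged histone was wild type. Each group had 3 libraries. The cells' own histone H4 genes, the promoter of the transgene, the number of clones and the origin of the replicates are not described in the sources used here. The sample labels carry the tag 4Ddif, which they do not explain, so no day of harvest is given. The p-values thus measure only the spread between these libraries, which may be technical. Library totals ran from 8970553 to 28887501 counts, with H4WT replicate 2 the deepest and the other H4WT libraries the shallowest.

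The neural label was set against marker genes. All 13 neuronal markers were detected in each group, with a summed level of 958 to 1030 CPM (TMM-scaled CPM, counts as a share of an adjusted library total) in H4K91Q, 1170 to 1420 in H4K91R and 418 to 515 in H4WT. All 12 neural progenitor markers were detected too, at 1830 to 1890, 2150 to 2270 and 2080 to 2520 CPM in H4K91Q, H4K91R and H4WT. Such a sum follows its most abundant genes. The median log2 change of these 12 against H4WT was 1.36 in H4K91Q and 1.70 in H4K91R. Genes of other lineages were also abundant. The 9 fibroblast markers summed to 7260 to 7920 CPM in H4K91Q, 6720 to 7510 in H4K91R and 5980 to 6990 in H4WT. The 8 smooth muscle markers summed to 447 to 502 CPM in H4K91Q and 479 to 762 in H4K91R, against 3980 to 4770 in H4WT. The RNA is thus that of a mixture, in which fewer cells of a type and less RNA per cell cannot be told apart.

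All 6 POU genes were higher in both mutants than in H4WT. The log2 changes ran from 0.73 for Pou3f4 to 2.64 for Pou4f2 in H4K91Q, and from 1.06 for Pou3f1 to 2.77 for Pou3f2 in H4K91R. For every one of the 6, each mutant library lay above each H4WT library, as was so for 27.4% of all tested genes in H4K91Q and 25.0% in H4K91R, while 27.7% and 30.1% lay wholly below H4WT. A gene was called at a Benjamini-Hochberg adjusted p below 0.05 in edgeR's quasi-likelihood test. Of all tested genes, 46.3% were called in H4K91Q (22.5% higher and 23.8% lower) and 46.0% in H4K91R (20.9% higher and 25.1% lower), so calls were common, and all 6 members were among the higher ones. Their median log2 change was 1.84 in H4K91Q and 2.23 in H4K91R, beside medians over all tested genes of 0.01 and -0.03. Pou4f2 passed the filter on low counts only through the mutant libraries. Its direction was thus nearly fixed by that filter, and it adds little to these counts and medians. Both comparisons use the same H4WT libraries, so their values are given side by side and are not independent.

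**Figure D1:**
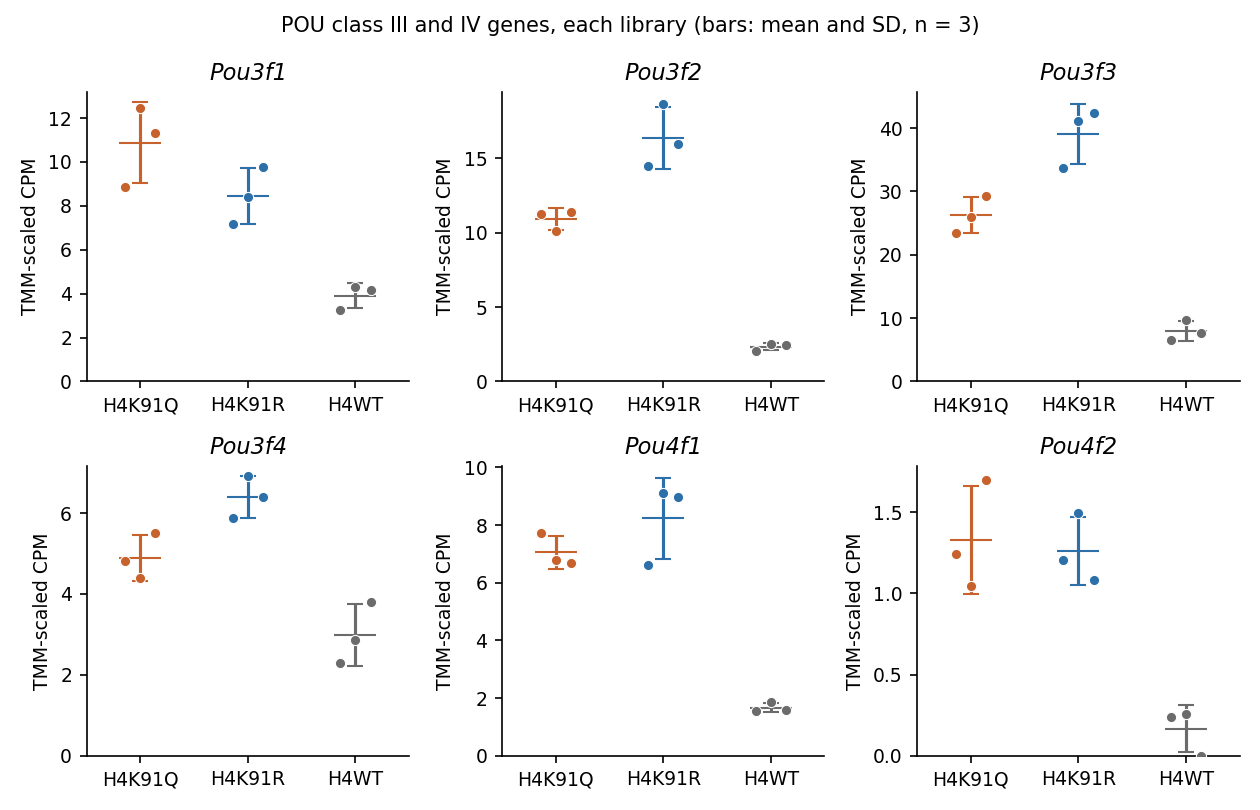
TMM-scaled CPM of each POU gene (y axis, linear from 0) in the 3 libraries of each group (x axis). Points are libraries and bars the mean and SD. Each H4K91Q and H4K91R point lies above each H4WT point in all 6 panels.

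Pou3f2, also called Brn2, promotes neurogenesis and the migration of cortical neurons. It is a gene of 1 exon on the minus strand (Entrez 18992, chr4:22482095-22488366 in GRCm38). Pou3f3, or Brn1, acts beside it in the cortex, and also in the kidney. It too has 1 exon, on the plus strand (Entrez 18993, chr1:42695768-42700210). These genes had the most alike levels over the libraries, and the 250 bases before their RefSeq starts are shown because both hold the CCAAT box, a common promoter element. Capitals mark CCAAT on either strand (GRCm38.p6, 5′ to 3′ on the strand of the gene, from chr4:22488367-22488616 and chr1:42695518-42695767).

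Pou3f2: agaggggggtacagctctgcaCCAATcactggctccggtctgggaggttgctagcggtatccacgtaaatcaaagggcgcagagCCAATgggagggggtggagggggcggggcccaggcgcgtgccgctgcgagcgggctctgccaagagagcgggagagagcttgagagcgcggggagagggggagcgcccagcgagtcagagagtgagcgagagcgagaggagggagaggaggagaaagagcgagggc

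Pou3f3: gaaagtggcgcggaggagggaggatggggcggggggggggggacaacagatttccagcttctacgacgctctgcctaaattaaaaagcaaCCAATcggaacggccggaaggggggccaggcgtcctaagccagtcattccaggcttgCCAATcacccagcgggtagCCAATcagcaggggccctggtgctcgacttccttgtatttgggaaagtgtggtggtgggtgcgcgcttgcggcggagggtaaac

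CCAAT was found 2 times before Pou3f2 and 3 times before Pou3f3. Of 27025 RefSeq windows of the same length, 34.5% held it at least 1 time, 10.5% at least 2 times and 2.98% at least 3 times, with both strands counted. The window of Pou3f4 held it 3 times, although part of that window lies inside the transcript as GENCODE draws it. Those of Pou4f1 and Pou4f2 held it 0 times, and part of the Pou4f1 window lies inside the gene as RefSeq draws it. None of these 5 windows held the octamer ATGCAAAT, the class III element CATNTAAT, the class IV element ATAATTAAT or the TATA box TATAAA, which 1.61%, 2.46%, 0.252% and 13.0% of all windows held. A letter match is a description, and its absence from a short window says nothing about binding elsewhere.

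Pou3f2 stood at 11.3, 10.1 and 11.4 CPM in H4K91Q, at 14.5, 18.6 and 16.0 CPM in H4K91R and at 2.04, 2.52 and 2.45 CPM in H4WT. The 3 groups did not overlap, and the H4WT libraries were close together. The log2 change was 2.19 ± 0.16 in H4K91Q (SE, n = 3 libraries per group, edgeR adjusted p = 5.55e-07) and 2.77 ± 0.16 in H4K91R (adjusted p = 6.53e-08).

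Pou3f3 stood at 23.5, 26.0 and 29.2 CPM in H4K91Q, at 33.7, 41.1 and 42.4 CPM in H4K91R and at 6.49, 9.63 and 7.72 CPM in H4WT. Again H4K91R was highest and H4WT lowest, without overlap. It rose by 1.66 ± 0.15 on the log2 scale in H4K91Q (edgeR adjusted p = 2.33e-06) and by 2.23 ± 0.15 in H4K91R (adjusted p = 2.09e-07).

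Pou3f1, known as Oct6 or Scip, acts in the early neural lineage and in Schwann cells that are about to form myelin (Entrez 18991, chr4:124657646-124660655, plus strand, 1 exon). Its CPM was 8.88, 12.5 and 11.3 in H4K91Q, 7.19, 8.42 and 9.75 in H4K91R and 3.25, 4.30 and 4.16 in H4WT. Here H4K91Q had the higher mean of the mutants, although their libraries overlapped. The log2 change was 1.44 ± 0.18 in H4K91Q (edgeR adjusted p = 2.96e-05) and 1.06 ± 0.19 in H4K91R (adjusted p = 0.00045). Of the 31-base words of its GENCODE transcript, 8.17% also occur in transcripts of other genes, most of them in Gm2164, against 0.964% to 2.08% for the other members. Gm2164 is not in the count table and the annotation used is not stated, so whether reads were divided between these 2 genes is not known.

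Pou3f4, or Brn4, acts in the inner ear, the neural tube and the hypothalamus (Entrez 18994, chrX:110814379-110819108, plus strand, 1 exon). It had 4.80, 4.38 and 5.51 CPM in H4K91Q, 5.87, 6.92 and 6.40 CPM in H4K91R and 2.28, 2.85 and 3.80 CPM in H4WT. The groups again lay apart, with a narrower gap between H4K91Q and H4WT than for the other members of class III. Its rise in H4K91Q, 0.73 ± 0.19 on the log2 scale (edgeR adjusted p = 0.00646), was the smallest of the 6, and in H4K91R it was 1.11 ± 0.19 (adjusted p = 0.000356).

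Pou4f1, or Brn3a, is needed for the development of sensory ganglia (Entrez 18996, chr14:104461675-104468118, minus strand, 3 exons). It stood at 7.72, 6.78 and 6.68 CPM in H4K91Q, at 6.62, 9.12 and 8.96 CPM in H4K91R and at 1.56, 1.85 and 1.59 CPM in H4WT. The mutants overlapped each other and both lay far above H4WT. The log2 change was 2.03 ± 0.19 in H4K91Q (edgeR adjusted p = 3.4e-06) and 2.24 ± 0.19 in H4K91R (adjusted p = 1.31e-06).

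Pou4f2, or Brn3b, is needed for retinal ganglion cells (Entrez 18997, chr8:78433009-78436647, minus strand, 2 exons). It was the least abundant member, with counts of 29, 21 and 29 in H4K91Q, 21, 19 and 11 in H4K91R and 2, 7 and 0 in H4WT, which gave 1.24, 1.05 and 1.70 CPM, 1.21, 1.49 and 1.08 CPM, and 0.240, 0.259 and 0 CPM. A count of 0, read as up to 3 counts, allows up to 0.111 to 0.367 CPM depending on the library, so H4WT replicates 1 and 3 lay at or under their limits of 0.361 and 0.367 CPM, and replicate 2 lay above its limit of 0.111 CPM. The log2 change was 2.64 ± 0.46 in H4K91Q (edgeR adjusted p = 0.00045) and 2.59 ± 0.49 in H4K91R (adjusted p = 0.000723). Without H4WT replicate 2, which held 7 of the 9 H4WT counts, the values were 3.35 and 3.30, still called, so the size of this change is poorly fixed. Pou4f3, the other class IV gene, was near 0 in all groups and was not tested.

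Per length, Pou3f3 had the highest level of the 6 in each group and Pou4f2 the lowest. With GENCODE transcript lengths Pou3f3 had a mean of 3.54 CPM per kb in H4K91Q, 5.27 in H4K91R and 1.07 in H4WT. In H4K91Q the order of levels continued with Pou3f1 at 2.83 CPM per kb, Pou3f2 at 1.96, Pou3f4 at 1.67, Pou4f1 at 1.59 and Pou4f2 at 0.415. Pou3f3 and Pou3f1 overlapped there, as did Pou3f4 with each of Pou3f2 and Pou4f1, while Pou3f2 lay above Pou4f1. In H4K91R it continued with Pou3f2 at 2.93, Pou3f1 at 2.20, Pou3f4 at 2.18, Pou4f1 at 1.85 and Pou4f2 at 0.394 CPM per kb, and the libraries of Pou3f1, Pou3f4 and Pou4f1 overlapped. In H4WT Pou3f3, Pou3f4 at 1.02 and Pou3f1 at 1.01 CPM per kb were not separated by their spread, nor were Pou3f2 at 0.418 and Pou4f1 at 0.375. Pou4f2 was at 0.052 CPM per kb in H4WT. RefSeq and GENCODE draw these genes with different ends, so the levels and their order depend on the annotation. With RefSeq lengths for class III Pou3f3 was again first in all groups, at 5.90 CPM per kb in H4K91Q, 8.80 in H4K91R and 1.79 in H4WT. It then no longer overlapped Pou3f1 in H4K91Q, at 2.95 to 4.14 CPM per kb. Pou3f1 stood above Pou3f2 in H4K91R, at 2.81 and 2.61 CPM per kb. In H4WT Pou3f1, at 1.08 to 1.43 CPM per kb, lay above Pou3f4, at 0.483 to 0.803.

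The mutants differed from each other in 2 of the 6 genes. H4K91Q set against H4K91R called 5.16% of all tested genes (2.37% higher and 2.78% lower), and Pou3f2 and Pou3f3 were among the lower ones. The H4K91Q mean of Pou3f2 was 10.9 ± 0.72 CPM and the H4K91R mean 16.4 ± 2.10 CPM (SD, n = 3 libraries each). Its log2 change was -0.58 ± 0.12 (edgeR adjusted p = 0.0187). For Pou3f3 the means were 26.2 ± 2.88 CPM in H4K91Q and 39.1 ± 4.73 CPM in H4K91R, with a log2 change of -0.57 ± 0.13 (edgeR adjusted p = 0.0235).

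Both calls ended when single libraries were left out. Neither gene was called without H4K91Q replicate 1, without H4K91Q replicate 2 or without H4K91R replicate 2, where the edgeR adjusted p ran from 0.0563 to 0.102. Pou3f3 was not called without H4K91R replicate 3 either (0.0553), nor was Pou3f2 when all libraries were thinned to equal totals, an alternative chosen after seeing the data (0.189). Over all leave-one-out fits the log2 change stayed negative, from -0.66 to -0.47 for Pou3f2 and from -0.67 to -0.50 for Pou3f3.

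Differences between H4K91Q and H4K91R in the other members did not pass the test. Pou3f4 had a log2 change of -0.38, with a 95% interval of -0.75 to -0.02 for the single gene (edgeR adjusted p = 0.199), although the mutants' libraries did not overlap, as was so in this direction for 12.8% of all tested genes and in the other for 12.5%. For Pou3f1 the change had the opposite sign, 0.38, with an interval of 0.03 to 0.72 (edgeR adjusted p = 0.19). The intervals were -0.53 to 0.12 for Pou4f1 and -0.64 to 0.75 for Pou4f2, so differences of up to the named sizes are compatible with these libraries. Pou4f1 and Pou4f2 had edgeR adjusted p-values of 0.454 and 0.942.

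**Figure D2:**
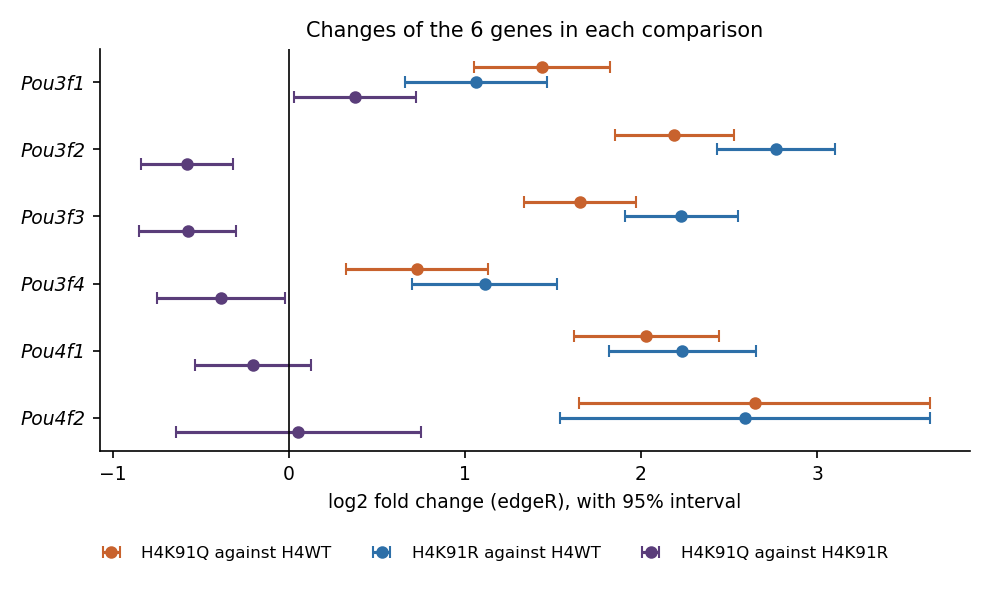
Log2 fold change of each POU gene (y axis) with its 95% interval (x axis, edgeR), for H4K91Q against H4WT, H4K91R against H4WT and H4K91Q against H4K91R, from top to bottom within a gene. The intervals against H4WT all lie above 0, and those between the mutants lie below 0 for Pou3f2, Pou3f3 and Pou3f4 and above 0 for Pou3f1.

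Because the members changed by different amounts, the make-up of the class III transcripts differed between groups. Summed class III CPM was 52.9 ± 4.51 in H4K91Q and 70.3 ± 7.85 in H4K91R, against 17.2 ± 2.74 in H4WT (SD, n = 3 libraries each). Shares of that sum are given per gene across groups, without correction for length. Pou3f2 made up 19.1% to 23.3% in H4K91Q and 21.4% to 24.8% in H4K91R, against 13.1% to 14.5% in H4WT, with no overlap between a mutant and H4WT. Pou3f4 showed the opposite, with 8.29% to 9.91% in H4K91Q and 8.59% to 9.59% in H4K91R, against 14.8% to 20.9% in H4WT.

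Shares of Pou3f1 and Pou3f3 did not overlap between the mutants. Pou3f3 held 48.5% to 50.9% in H4K91Q and 54.8% to 56.9% in H4K91R, against 42.6% to 49.9% in H4WT. The Pou3f1 share of class III CPM was 18.3% to 23.5% in H4K91Q, which overlapped the 22.3% to 23.1% of H4WT, and 11.2% to 13.1% in H4K91R. The ratio of Pou3f1 to Pou3f2 CPM was 0.787 to 1.23 in H4K91Q, 0.452 to 0.611 in H4K91R and 1.59 to 1.71 in H4WT, and no group overlapped another. The ratio of Pou3f2 to Pou3f3 CPM, in contrast, was close in the mutants, at 0.42 ± 0.052 in H4K91Q and 0.42 ± 0.040 in H4K91R, and 0.298 ± 0.032 in H4WT (SD, n = 3 libraries each). These shares and ratios are descriptions, and no test was run on them.

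**Figure D3:**
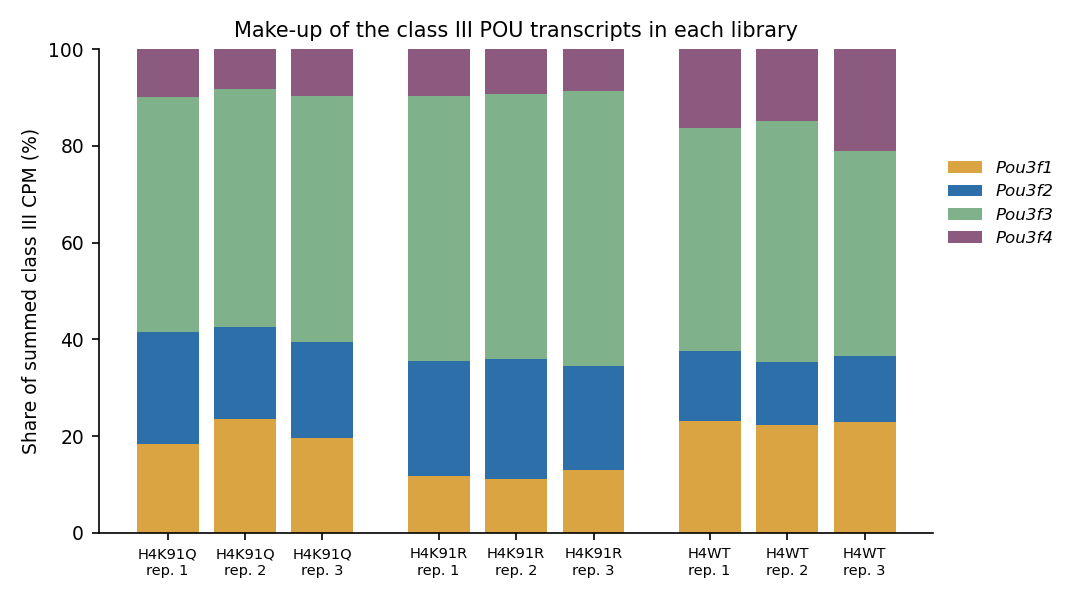
Share of the summed class III CPM (y axis, percent, from 0 to 100) held by Pou3f1, Pou3f2, Pou3f3 and Pou3f4 in each of the 9 libraries (x axis, grouped as H4K91Q, H4K91R and H4WT). The Pou3f1 band is thinnest in H4K91R, at 11.2% to 13.1%, and the Pou3f4 band is thickest in H4WT.

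Neuronal markers moved with the POU genes. Of the 13 listed neuronal markers, 11 rose and 1 fell in H4K91Q, and 11 rose and 0 fell in H4K91R. Between the mutants 0 were higher and 7 lower in H4K91Q than in H4K91R, the direction of Pou3f2 and Pou3f3. The level of each member was therefore also expressed as a percentage of the summed CPM of the 13 neuronal markers in the same library. On that scale Pou3f2 stood at 0.985% to 1.18% in H4K91Q and 1.12% to 1.34% in H4K91R, against 0.489% to 0.501% in H4WT. Pou3f3 stood at 2.45% to 2.85%, 2.87% to 2.98% and 1.55% to 1.87% in H4K91Q, H4K91R and H4WT. Against single markers the picture differed. Dcx, Map2 and Elavl3 rose by 1.88, 1.82 and 2.04 on the log2 scale in H4K91Q and by 2.36, 2.34 and 2.66 in H4K91R. Pou3f2, at 2.19 and 2.77, exceeded all 3, while Pou3f3, at 1.66 and 2.23, exceeded 0 of them. These 3 are the markers of smallest adjusted p in the list. The median over all 13 markers was 1.42 in H4K91Q and 1.95 in H4K91R, below both Pou3f2 and Pou3f3. Differences between genes were not tested.

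Pou4f1 stood, relative to the summed markers, at 0.650% to 0.806% in H4K91Q and 0.564% to 0.656% in H4K91R, against 0.326% to 0.374% in H4WT. Pou4f2 lay at 0.102% to 0.165%, 0.0761% to 0.107% and 0 to 0.0575% in the same order of groups. The order differed for Pou3f4. Its percentage was 0.427% to 0.536% in H4K91Q and 0.450% to 0.500% in H4K91R, with H4WT higher at 0.546% to 0.777%. Pou3f1 was at 0.927% to 1.21% in H4K91Q and 0.605% to 0.685% in H4K91R, on either side of the 0.777% to 0.852% of H4WT. No marker of the list was at 0 in any group. The part of the neuronal share, or of the lower smooth muscle markers, in the changes of the POU genes was not tested.

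The other marker lists are given beside the 46.3% of all tested genes called in H4K91Q and the 46.0% called in H4K91R. Of 12 neural progenitor markers 8 rose and 2 fell in H4K91Q, and 10 rose and 1 fell in H4K91R, with Hes5, a Notch target, lower in H4K91Q than in H4K91R (-1.05 ± 0.14, edgeR adjusted p = 0.00174). In the smooth muscle list all 7 tested markers fell in both mutants, among them Cnn1, a calponin, at -3.58 ± 0.15 in H4K91Q and -3.23 ± 0.15 in H4K91R. Of 6 tested epithelial markers 5 fell in each mutant, and of 9 fibroblast markers 4 rose and 1 fell in each. Of 4 tested endothelial markers 2 rose and 1 fell in H4K91Q, and 1 rose and 1 fell in H4K91R. Both tested blood markers fell in each mutant, and of 4 tested muscle markers 0 rose and 2 fell in H4K91Q and 0 rose and 1 fell in H4K91R.

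Of the 11 other POU genes listed, 5 were tested, and they did not share a direction. Pou6f1, a neural member of class VI, rose by 1.10 ± 0.11 on the log2 scale in H4K91Q and by 1.57 ± 0.11 in H4K91R, and was lower in H4K91Q than in H4K91R by -0.47 ± 0.095 (edgeR adjusted p = 0.0172). Pou2f2, known from B cells and also active in neurons, rose by 1.56 ± 0.31 in H4K91Q and 2.14 ± 0.31 in H4K91R (edgeR adjusted p = 0.00118 and 8.72e-05). In H4WT Pou2f2 stood at 0.601, 0.741 and 0.612 CPM, and it passed the filter on low counts only through the mutant libraries, which favours a rise. Pou5f1, the pluripotency factor Oct4, moved in opposite directions. It averaged 61.0 CPM in H4K91Q, 9.91 CPM in H4K91R and 24.6 CPM in H4WT, a log2 change of 1.24 ± 0.24 in H4K91Q and -1.42 ± 0.27 in H4K91R (edgeR adjusted p = 0.000869 and 0.000934). The summed CPM of 8 pluripotency markers, Pou5f1 among them, was 316 to 460, 187 to 212 and 285 to 369 in H4K91Q, H4K91R and H4WT. Of these, 6 rose and 1 fell in H4K91Q, and 0 rose and 7 fell in H4K91R, or 3 fell there without H4WT replicate 2.

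The ubiquitous Pou2f1, or Oct1, was not called in either mutant, with log2 changes of -0.17 in H4K91Q and -0.29 in H4K91R (edgeR adjusted p = 0.256 and 0.071). Hdx had -0.31 and -0.40 (edgeR adjusted p = 0.295 and 0.212). Of the 5 tested other POU genes, 3 rose and 0 fell in H4K91Q, and 2 rose and 1 fell in H4K91R, with Pou2f2 among the rises in both. Without H4WT replicate 2, 3 rose and 1 fell in H4K91Q, and 2 rose and 2 fell in H4K91R. A missing call in this list can thus depend on that replicate. Pou1f1, Pou2af1, a coactivator rather than a POU protein, Pou2f3, Pou4f3 and Pou5f2 had too few counts to be tested.

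SOX proteins are the DNA-binding partners of class III factors at many neural enhancers. Of 10 tested SOX genes, 9 rose and 0 fell in each mutant, with a median log2 change of 0.84 in H4K91Q and 1.10 in H4K91R. Beside this and the other list counts, 22.5% of all tested genes were higher and 23.8% lower in H4K91Q. In H4K91R 20.9% were higher and 25.1% lower. Sox2, the progenitor factor most often paired with class III proteins, averaged 53.7 CPM in H4K91Q and 48.2 CPM in H4K91R, against 13.01 CPM in H4WT. It rose by 2.02 ± 0.14 in H4K91Q and 1.86 ± 0.14 in H4K91R (edgeR adjusted p = 4.1e-07 and 4.28e-07). Sox11, a factor of young neurons, rose by 0.97 ± 0.092 and 1.16 ± 0.092, and Sox3 by 1.96 and 2.72. Sox3 was lower in H4K91Q than in H4K91R (-0.76 ± 0.18, edgeR adjusted p = 0.0321), as was Sox6 (-0.64 ± 0.15, adjusted p = 0.0317). Sox5 was not called, at -0.09 and -0.11, and Sox10, the partner in Schwann cells, had too few counts to be tested.

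Genes linked to class III factors by binding or by mutant studies mostly rose. Of 20 tested, 16 rose and 1 fell in each mutant, and the median log2 change was 1.18 in H4K91Q and 1.31 in H4K91R. Sox2, Fabp7, Pax6 and Nes are also neural progenitor markers, and Sox2 is in the SOX list, so the counts of these lists are not independent. Fabp7, which radial glia make to carry lipids, averaged 231 CPM in H4K91Q and 333 CPM in H4K91R, against 44.7 CPM in H4WT. Cdk5r1, a Cdk5 activator needed for neuronal migration, rose by 1.92 in H4K91Q and by 2.44 ± 0.17 in H4K91R, and Gli1, a Hedgehog target, by 1.96 ± 0.15 and 2.14 ± 0.15.

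Some of these genes went apart from the members. Nes, whose neural enhancer holds a POU site, fell by 0.49 on the log2 scale in H4K91Q (edgeR adjusted p = 0.00299) and was not called in H4K91R, at -0.12 (adjusted p = 0.421). Eomes, a factor of cortical intermediate progenitors, averaged 4.95 CPM in H4K91Q, 1.94 CPM in H4K91R and 5.06 CPM in H4WT. It fell by 1.36 on the log2 scale in H4K91R (edgeR adjusted p = 0.00158) and was not called in H4K91Q, at -0.06 (adjusted p = 0.856). The difference between the mutants passed as well (1.30 ± 0.27, edgeR adjusted p = 0.0189). Reln, the secreted guide of cortical neurons, was lower in H4K91Q than in H4K91R (-0.85 ± 0.14, edgeR adjusted p = 0.00624), and Pmp22, a myelin protein, was higher (0.71 ± 0.14, adjusted p = 0.0172).

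Of 20 tested genes linked to class IV factors, 12 rose and 2 fell in each mutant, with a median log2 change of 0.93 in H4K91Q and 1.25 in H4K91R. Without H4WT replicate 2, 9 rose in H4K91Q and 12 in H4K91R. Snap25, Ina, Gap43 and Tubb3 are also among the neuronal markers above, so the counts of the 2 lists are not independent. Ntrk2, the BDNF receptor TrkB, averaged 110 CPM in H4K91Q and 84.8 CPM in H4K91R, against 26.5 CPM in H4WT, and rose in both (edgeR adjusted p = 1.37e-06 in H4K91Q and 4.98e-06 in H4K91R). Snap25, a presynaptic protein and Brn3a target, rose by 1.42 ± 0.11 in H4K91Q and 1.80 ± 0.11 in H4K91R, Ina, an intermediate filament of neurons, by 1.66 and 2.20 ± 0.16, and Syn1 by 1.21 and 1.81 ± 0.15. These 3 genes were lower in H4K91Q than in H4K91R. Runx1, a factor of pain-sensing neurons that also acts in blood, fell in both mutants, to 21.4 CPM in H4K91Q and 20.5 CPM in H4K91R, against 50.04 CPM in H4WT (log2 changes of -1.23 and -1.27).

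Markers of the cell types in which class IV factors act moved in both directions. Of 14 tested genes of sensory neurons, 7 rose and 3 fell in each mutant, and 5 rose in each without H4WT replicate 2. Over all tested genes, 22.5% were higher and 23.8% lower in H4K91Q, and 20.9% and 25.1% in H4K91R. Tlx3, a selector gene of spinal and sensory neurons, averaged 3.64 CPM in H4K91Q and 4.64 CPM in H4K91R, against 0.394 CPM in H4WT. Like Pou4f2, Tlx3 passed the filter on low counts only through the mutant libraries, so its direction was nearly fixed by that filter. Piezo2, the touch channel, fell by 1.31 ± 0.20 in H4K91Q and 1.60 ± 0.21 in H4K91R on the log2 scale, and the sodium channel gene Scn9a by 2.55 ± 0.32 in H4K91Q. Isl1, which acts with Brn3a, was not called, at -0.28 in H4K91Q and -0.43 in H4K91R (edgeR adjusted p = 0.331 and 0.16).

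Among 13 tested genes of retinal ganglion cells, 4 rose and 3 fell in H4K91Q, and 4 rose and 4 fell in H4K91R, near the shares over all tested genes. Their median was -0.06 in H4K91Q and -0.14 in H4K91R with TMM, and 0.11 and 0.05 with library size scaling, so it had no stable sign. Ebf1 and Ebf3, factors also expressed in many other neurons, rose by 1.96 ± 0.16 and 1.22 ± 0.097 in H4K91Q and by 2.10 ± 0.16 and 1.37 ± 0.098 in H4K91R. Thy1 fell, with changes of -1.13 and -0.96, and Rbpms fell, with -0.72 and -0.79. Atoh7, the retinal factor upstream of Pou4f2, was at or near 0 in all libraries and was not tested.

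**Figure D4:**
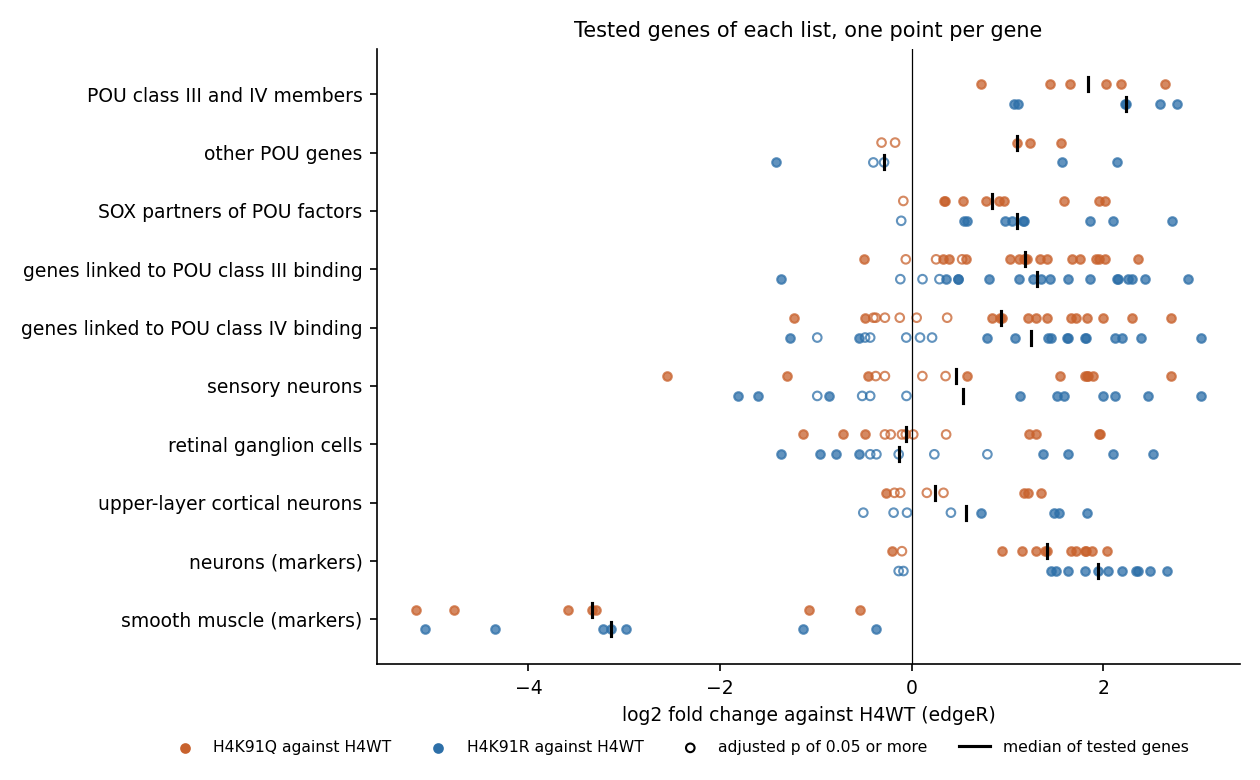
Log2 fold change against H4WT (x axis, edgeR) of every tested gene of 10 lists (y axis), with H4K91Q above H4K91R in each row. Filled points passed an adjusted p of 0.05, open points did not, and the black bar is the median. All 6 members lie right of 0, while sensory and retinal ganglion cell genes lie on both sides.

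In the other lists drawn from tissues that use these factors, 3 of 8 tested upper-layer cortical genes rose and 1 fell in H4K91Q, and 4 rose and 0 fell in H4K91R. Bcl11b, a factor of projection neurons, rose by 1.35 ± 0.19 and 1.83 ± 0.19, and Cux2, a marker of upper layers, by 1.17 ± 0.26 and 1.54 ± 0.27. Of 5 tested hypothalamic genes 3 rose and 0 fell in each mutant, among them Arnt2, a partner in hypothalamic development, at 1.14 ± 0.12 and 1.54 ± 0.12. The 3 were not the same genes in both. Trh rose by 2.74 ± 0.41 in H4K91Q and was higher there than in H4K91R by 4.09 ± 0.48 (edgeR adjusted p = 0.00112). Without H4WT replicate 2, 4 hypothalamic genes were tested, and 3 rose in H4K91Q and 2 in H4K91R. Of 10 Schwann cell and melanoblast genes 5 rose and 0 fell in H4K91Q, and 7 rose and 1 fell in H4K91R, with Ednrb, an endothelin receptor, at 1.73 ± 0.13 and 2.30 ± 0.13. Of 8 inner ear genes 4 rose and 1 fell in H4K91Q, and 3 rose and 2 fell in H4K91R, with Pax2 at 1.48 ± 0.20 and 2.34 ± 0.20 and Dlx5 at -1.66 ± 0.17 and -2.06 ± 0.19.

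Next to Pou3f3 a long noncoding RNA gene changed with it. Pantr1 (chr1:42648200-42694825) lies 943 bases from Pou3f3. It stood at 8.88, 10.2 and 8.67 CPM in H4K91Q, at 8.98, 11.8 and 11.7 CPM in H4K91R and at 0.721, 1.78 and 1.35 CPM in H4WT. The mutants overlapped each other and neither overlapped H4WT. The log2 change was 2.67 in H4K91Q and 2.89 ± 0.23 in H4K91R (edgeR adjusted p = 5.96e-07 in H4K91R), against 1.66 and 2.23 for Pou3f3. A second noncoding entry, 2900092D14Rik, lies 126 bases past the RefSeq end of Pou3f3 and rose by 2.09 in H4K91Q and 2.49 ± 0.32 in H4K91R. It lies inside the Pou3f3 transcript as GENCODE draws it, so its reads may be those of Pou3f3. Whether reads were counted by strand is not given in the sources used here. Pantr2 and Dalir, farther from Pou3f3, were near 0 and not tested.

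Of 45 RefSeq genes within 200 kb of a member, 24 were in the count table and 15 were tested. In H4K91Q 5 rose and 4 fell, and in H4K91R 4 rose and 4 fell. These counts were near the shares over all tested genes, 22.5% higher and 23.8% lower in H4K91Q and 20.9% and 25.1% in H4K91R. 0 of the 15 were called between H4K91Q and H4K91R at the adjusted threshold. Maneal, a mannosidase-like gene 194584 bases from Pou3f1, rose by 1.82 and 2.23 ± 0.22. Utp11 and Inpp5b, nearer to Pou3f1, were lower by -0.24 and -0.28 in H4K91Q and by -0.33 and -0.28 in H4K91R. Obi1, next to Pou4f1, and Mrps9, in the region of Pou3f3, had log2 changes between -0.01 and 0.20. Pou3f4 had no neighbour in the table.

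**Figure D5:**
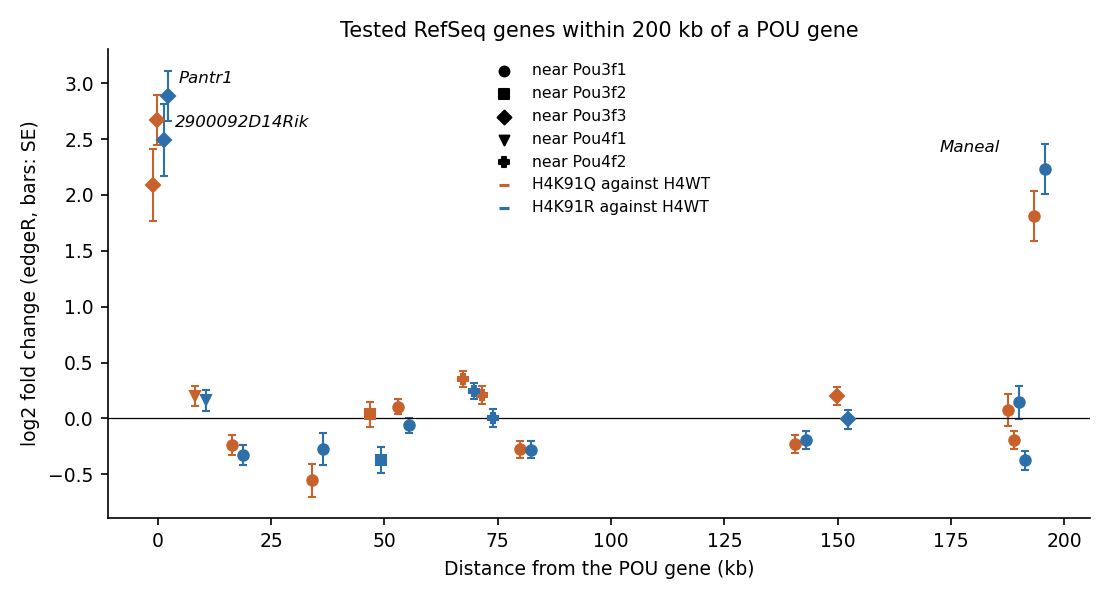
Log2 fold change with SE (y axis, edgeR) of the 15 tested genes within 200 kb of a member, against their distance from it in kb (x axis), for H4K91Q and H4K91R, each against H4WT. Pantr1 and 2900092D14Rik beside Pou3f3, and Maneal at the far end from Pou3f1, lie above 1 in both mutants, and the other 12 lie between -1 and 1.

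Over the 9 libraries, the members' log2 CPM went together to different degrees. Pearson's r was 0.99 for Pou3f2 with Pou3f3 and 0.988 for Pou3f2 with Pou4f1, and lowest, at 0.718, for Pou3f4 with Pou4f2. These values are descriptions over 3 groups that differ, and they share the library scaling. Among genes of at least 5 CPM, Pou3f2 was most like Dcx, a microtubule protein of migrating neurons (r = 0.999), and Lrrn3 (0.998). Dcx averaged 123 CPM in H4K91Q and 171 CPM in H4K91R, against 33.2 CPM in H4WT. Pou3f3 was most like Fgfbp3 and Gprin1, both at 0.998, and Pou4f1 like Macroh2a2, a histone variant gene, and Pcsk2, a prohormone convertase, both at 0.997. Pou3f4 was most like Chd5, a neuronal chromatin remodeller, and Nfasc, an adhesion protein of axons, both at 0.991. Pou3f1 went with Atraid (0.989) and Pgghg (0.988), and Pou4f2 with Aldh5a1 (0.983) and Cep78 (0.98), genes whose changes against H4WT were at most 0.70 on the log2 scale.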

How the data were processed

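Poly(A) RNA was extracted with an RNeasy kit and libraries were made with NEBNext Ultra II, per the labels' protocols. The deposited values are expected counts per Entrez gene, all whole numbers. Salmon 0.8.2, DESeq2 and mm10 are named in the submitters' processing notes, while the annotation, strand setting and any rounding are not stated in them or in the labels. A RefSeq table of GRCm38.p6 gave symbols for 24045 of 24100 IDs, and the sequences shown. Transcript lengths came from GENCODE M21 of the same build.

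Genes were filtered with filterByExpr (minimum count 10), scaled by TMM (factors 0.911 to 1.06) and fitted with edgeR 4.0.16 in R 4.3.3, with 1 mean per group over all 9 libraries (biological coefficient of variation 8.82%). Tests were two-sided, with Benjamini-Hochberg adjustment over 14761 genes, and the code was tested on simulated data. Library totals ran from 8970553 to 28887501, and limits from a count of 0 cover counting error only. A gene under the filter in a group was tested only through groups where it was higher. This favours that direction, in the lists as for Pou4f2.

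The 6 members and the 20 gene lists (198 names, 2 unmatched) were chosen with earlier results of these data known. Genes were named as members, as other tested POU genes, as up to 3 called genes of at least 1 CPM per list and comparison by smallest adjusted p, as RefSeq neighbours within 200 kb, and as the 2 genes most like each member in Pearson's r. A few list genes outside that rule, such as Nes, Isl1, Thy1, Rbpms and those named as not tested, were named after their values were seen. Same-numbered H4K91Q and H4WT libraries deviated together in all 3 pairs (r across genes of 0.141 to 0.198), a hint from the data and not from the labels. The values printed come from the fit without pairs, and the paired fit of H4K91Q and H4WT changed no call of a member. Alternatives were RLE or library size scaling, no filter, DESeq2 1.42.0, limma-voom 3.58.1, a replicate block, the compared groups only and leaving out each library, with thinning, the block within compared groups and lists without H4WT replicate 2 added after seeing the data. Some genes that the rule or the lists take are not reported here.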

Additional observations from a re-analysis of the deposited data

How the results depend on the processing

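Each member's change was recomputed under 18 alternatives. Against H4WT, 216 of 216 values kept direction and call, and between H4K91Q and H4K91R 98 of 108 did. These counts include fits that left out a library of the group not compared. Such fits could hardly change a value, so the counts overstate the stability. With library size scaling the median over all tested genes was 0.18 in H4K91Q and 0.15 in H4K91R, against 0.01 and -0.03 with TMM, and 5557 genes were higher and 2069 lower in H4K91Q, and 5031 and 2013 in H4K91R, where TMM gave 3314 and 3516, and 3092 and 3705. The members' medians were then 2.01 in H4K91Q and 2.41 in H4K91R.

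Between H4K91Q and H4K91R, leaving out 1 library gave 188 to 1093 called genes and 0 to 2 called members, against 761 and 2. Pou3f2 ran from -0.66 to -0.47 and Pou3f3 from -0.67 to -0.50. Pou4f2 turned negative without H4K91R replicate 3 (-0.02) and without H4K91Q replicate 3 (-0.14), with a highest leave-one-out value of 0.19. With thinning to equal totals 356 genes and 1 member were called, and Pou3f2 was at -0.45 (edgeR adjusted p = 0.189). The cause was not tested. Against H4WT the Pou4f2 change was 3.60 in H4K91Q and 3.05 in H4K91R with thinning.

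With the replicate block 6840 genes were called in H4K91Q against H4WT, 6751 in H4K91R against H4WT and 1011 between the mutants, and the block changed no call of a member. The paired fit of H4K91Q and H4WT alone called 8077 genes, with Pou3f2 at 2.17. In the comparisons with H4K91R only the replicate 1 libraries deviated most with their own number, at r of 0.174 with H4WT and 0.198 with H4K91Q. Replicates 2 and 3 did not pair there (r of -0.163 to 0.0107). Without H4WT replicate 2 the pluripotency markers that fell in H4K91R numbered 3, against 7. Depth limits Pou4f2 most, with 9 counts over the H4WT libraries.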
